A study of Homo sapiens with 36 samples.

Results

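The heat shock chaperones described here are the 10 genes *HSPA1A*, *HSPA1B*, *HSPA8*, *HSPH1*, *DNAJB1*, *BAG3*, *HSP90AA1*, *HSPB1*, *HSPD1* and *HSPE1*, taken by gene symbol from the 62757 genes listed in the count tables. Their mRNA was measured by RNA-seq in HCT-116 cells, a human colorectal cancer line, either WT or with *FBXW7* knocked out by Cas9 (KO, *FBXW7*-/-). Whether the KO line is a single clone is not given in the sources used here. KO cells received the control esiRNA esiCT, the *HDAC4*-directed esiHDAC4, or esiCT together with #11, all for 48 h. The compound #11 is a PROTAC that targets HDAC4 protein for degradation. According to the study it also degraded the other class IIa HDACs, so it was not selective for HDAC4. The #11 dose is 1 µM in one label entry and 10 µM in another. Each of these 3 conditions was sampled untreated (UNT) and with oxaliplatin (OXPT), a platinum drug, at 50 µM for the last 24 h. WT cells were sampled UNT and with OXPT, and their label entries differ on whether the esiRNA was esiCT or esiHDAC4. This gives 8 groups of 3 libraries each, 24 in all. A further 12 WT libraries carry contradictory OXPT entries and enter no comparison. The labels do not say whether the 3 libraries of a group came from separate cultures, so the tests measure the spread between libraries, which may be technical.

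Heat shock proteins keep other proteins folded. In the cytosol HSP70 proteins bind unfolded chains in cycles that J proteins start and exchange factors end, and HSP90 takes over clients at a late stage of folding. Small heat shock proteins hold unfolded chains in a refoldable state, and HSP60 with HSP10 form the folding chamber of mitochondria. Transcription of most of these genes is raised by the factor HSF1 when unfolded proteins accumulate. HSF1 binds as a trimer to heat shock elements, inverted repeats of the unit GAA. Tumour lines often keep these genes at high levels without heat.

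Because the members are known as targets of one factor, their promoters were read for that element in the RefSeq windows (GRCh38.p14) that run from 250 bases before to 50 bases after each annotated start. All 10 members had at least 1 window, and genes with several starts had several. The letters searched were GAANNTTC and TTCNNGAA, which read the same on both strands, and overlaps in which both strings share a unit. At least one of these strings stood in a window of 7 of 10 members (70%) and in 13.5% of 34943 promoter windows of all genes. The overlapping form stood in a window of 3 of 10 members (30%) and in 0.489% of all windows. Members with several windows had several chances, so these shares are descriptive. The stretches before the start are shown 5′ to 3′ on the gene's strand for the members that held a match, with the matched letters in capitals. For *HSPA8* and *HSPD1* the match shown lay inside an annotated exon of a longer transcript, and the element alone is given. *HSPA8* held 2 overlapping elements, 230 to 218 and 55 to 43 bases before its start, and the nearer one is printed. They are, in order, chr6:31815417-31815464 (+), chr6:31827613-31827660 (+), chr19:14518417-14518494 (−), chr14:102087085-102087152 (−), chr7:76302471-76302518 (+), chr11:123062179-123062191 (−) and chr2:197500068-197500085 (−).
HSPA1A: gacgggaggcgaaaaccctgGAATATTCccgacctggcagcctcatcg
HSPA1B: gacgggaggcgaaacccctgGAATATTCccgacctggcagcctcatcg
DNAJB1: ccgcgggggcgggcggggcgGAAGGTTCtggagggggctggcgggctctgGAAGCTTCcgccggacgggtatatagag
HSP90AA1: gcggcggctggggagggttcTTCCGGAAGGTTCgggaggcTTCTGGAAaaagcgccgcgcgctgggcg
HSPB1: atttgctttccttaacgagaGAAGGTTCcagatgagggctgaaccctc
HSPA8: TTCTGGAAGGTTC
HSPD1: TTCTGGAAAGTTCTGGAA
The overlapping form was that of *HSP90AA1*, *HSPA8* and *HSPD1*. No match to these letters stood in the windows of *HSPH1*, *BAG3* or *HSPE1*. *HSPE1* and *HSPD1* lie head to head on chromosome 2, so the *HSPD1* element lies between their starts or just inside *HSPD1*, depending on the start used.

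The libraries held 10725966 to 20527222 gene counts (median 14510758). CPM below is the count scaled to library size with TMM factors. *FBXW7* RNA did not mark the genotype: untreated KO esiCT held 15.4, 17.2 and 18.1 CPM and untreated WT 16.9, 23.5 and 22.8 CPM, which overlap, and counts over the whole gene check no small Cas9 lesion. *HDAC4* was at 18.4, 14.0 and 24.9 CPM in untreated KO esiCT and at 8.94, 8.80 and 14.9 CPM with esiHDAC4, which overlap. Under OXPT it was at 6.28, 5.71 and 7.50 CPM with esiCT and at 4.13, 3.33 and 4.19 CPM with esiHDAC4, without overlap. Its differences of −0.82 and −0.74 log2 units did not pass the adjusted threshold in edgeR. The p53 target *CDKN1A* rose with OXPT in KO esiCT by 3.18 log2 units (SE 0.38, edgeR quasi-likelihood test, adjusted p = 1.65e-05). In untreated WT *CDKN1A* was at 381, 288 and 1221 CPM, so the number 3 library lay apart from the other two. Among epithelial markers *EPCAM* (group means 234 to 309 CPM), *KRT8* and *KRT18* were high and *CDX1* and *VIL1* were at or near 0. The markers *PTPRC*, *COL1A2* and *PECAM1* of other cell types stayed under 0.31 CPM, and *COL1A1* was at 35.1 to 56.6 CPM.

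Libraries numbered 3 stood apart in the groups without #11. Over all genes they differed from numbers 1 and 2 along GC content, from a median of −0.51 log2 units for transcripts under 40% GC to 0.44 for those over 65%. Members differed more than that: *HSPH1* (39.6% GC) was lower by 2.52 log2 units, with only 0.089% of the genes tested lower still. *HSPA8*, *HSP90AA1* and *HSPD1* had differences of −1.91, −1.78 and −1.61. The remaining 5 members lay between −0.58 (*HSPA1B*) and 0.26 (*HSPB1*). Results that rest on these libraries are given below with and without them. How far library composition enters the members' values was not tested.

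**Figure D1:**
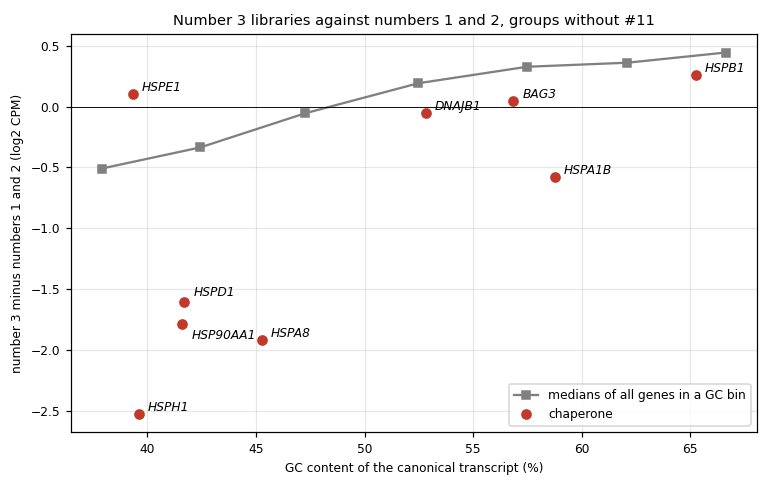
Difference in mean log2 CPM between number 3 libraries and numbers 1 and 2 in the 6 groups without #11 (y axis) against GC content of the Ensembl canonical transcript (x axis, %). Red points are the 9 members tested and grey squares are medians of all genes tested in GC bins, from −0.51 under 40% to 0.44 over 65%. *HSPH1*, *HSPA8*, *HSP90AA1* and *HSPD1* lie at −2.52 to −1.61.

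Levels between members are compared per kilobase of exon, as mean ± SD over the 3 untreated KO esiCT libraries. *HSP90AA1*, the inducible cytosolic HSP90, held 683 ± 399 CPM per kb (SD, n = 3 here and below), and *HSPB1*, the small heat shock protein HSP27, 499 ± 72.3 CPM per kb. *HSPA8*, the constitutive HSP70, followed at 330 ± 167 CPM per kb and *HSPD1*, mitochondrial HSP60, at 119 ± 56.2 CPM per kb. *HSPA1B*, *BAG3* and *HSPE1* were close together at 47.6 ± 20.5, 45.1 ± 5.04 and 44.4 ± 7.88 CPM per kb, and their ranges overlapped. *DNAJB1* stood at 33.5 ± 6.01 and *HSPH1* at 8.04 ± 4.7 CPM per kb. *HSPA1A* held 1.14 ± 0.356 CPM per kb, 42 raw counts on average. It shares 69.5% of its 100-base stretches with other genes, mostly *HSPA1B*, so reads that map to both are not in these counts, and it fell below the count filter. Its share of the stress-induced HSP70 pair is therefore not known from these files, and *HSPA1B* is uncertain for the same reason. *HSPA1B* also overlaps another annotated gene over 36.6% of its exon bases, *HSPE1* over 17.9% and *HSPA8* over 15.1%, where unstranded counting drops ambiguous reads.

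**Figure D2:**
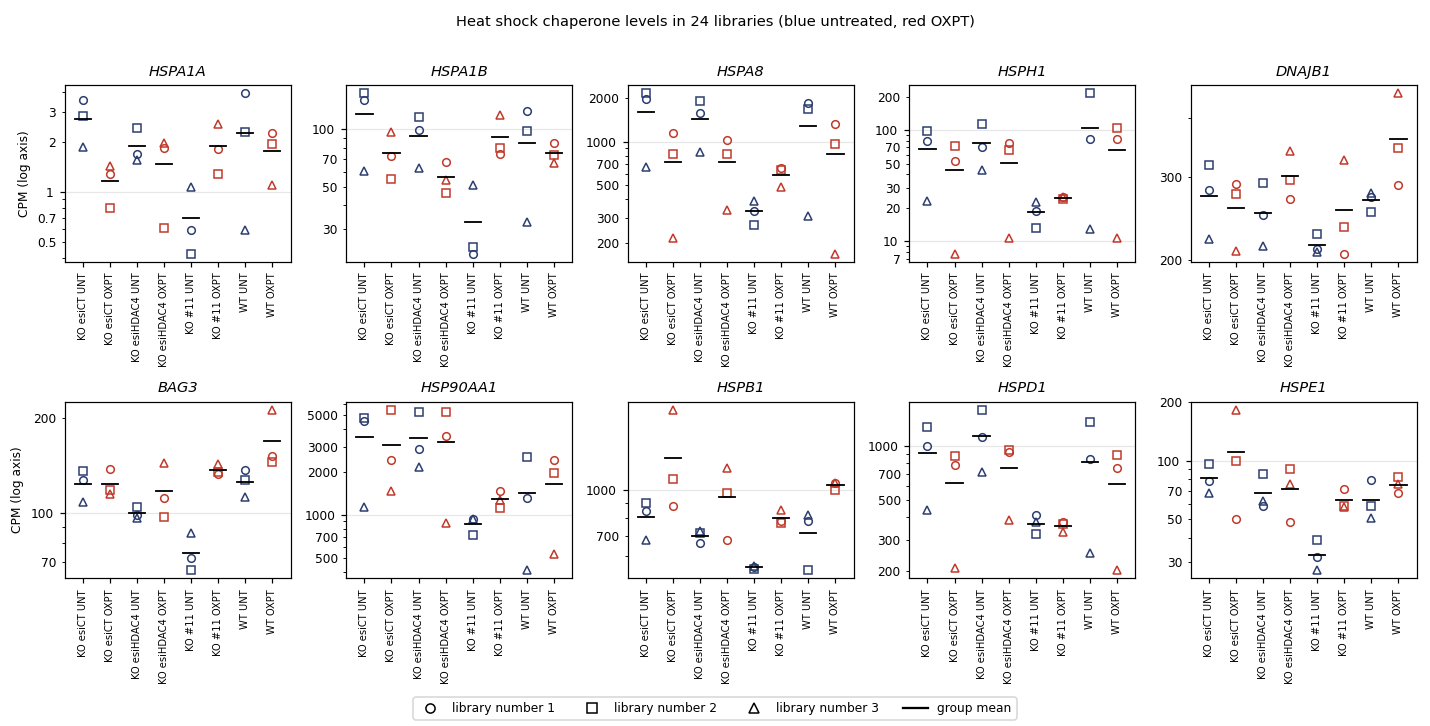
CPM (log y axis, a different range in each panel) of the 10 members in the 8 groups (x axis). Each symbol is 1 library, its shape the library number, blue untreated and red with OXPT; bars are group means. The 3 untreated #11 libraries lie below the 3 untreated KO esiCT libraries in 8 of 9 members tested (not *DNAJB1*). Triangles (number 3) are low for *HSPH1*, *HSPA8*, *HSP90AA1* and *HSPD1* in most groups without #11.

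In untreated KO cells #11 was compared with esiCT. All 9 members tested had lower levels with #11, with a median difference of −1.31 log2 units against −0.0034 for all genes. None passed the adjusted threshold together with a 1.5-fold change in edgeR's quasi-likelihood test, against 63 of 12356 genes (0.510%). At an unadjusted p under 0.05 there were 8 of 9, and DESeq2 called 4, against 409 of 12356 genes (3.31%). All 3 #11 libraries lay below all 3 esiCT libraries in 8 of 9 members, a pattern that 14.8% of all genes showed in that direction. Levels this low also occurred without #11. Untreated WT number 3 lay within or below the #11 range for *HSPA8* (308 CPM), *HSPA1B* (32.5), *HSPH1* (12.8), *HSP90AA1* (409) and *HSPD1* (252). For *DNAJB1*, *HSPB1*, *BAG3* and *HSPE1* it lay above that range. Members were not independent of each other: *HSPH1*, *HSPD1*, *HSPA8* and *HSP90AA1* correlated within groups at r = 0.87 to 0.99. In bulk RNA, fewer cells of a kind and less RNA per cell cannot be told apart. Over all genes, deviations from group means of same-numbered #11 and esiCT libraries correlated at 0.11, −0.25 and −0.17. With OXPT these correlations were −0.23, 0.13 and −0.03. The labels do not say whether both kinds of library were prepared together, so #11 and a difference in preparation cannot be told apart.

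Among the HSP70 genes, *HSPA8* was at 1957, 2163 and 673 CPM in untreated KO esiCT and at 333, 267 and 391.5 CPM with #11. The groups did not overlap, although the number 3 esiCT library came close. Its difference was −2.27 log2 units (SE 0.71, edgeR adjusted p = 0.130). *HSPA1B*, the stress-induced HSP70, was at 143, 156 and 60.8 CPM with esiCT and at 22.2, 24.0 and 51.2 CPM with #11. The number 3 libraries of both groups were nearest to each other, and the difference was −1.89 log2 units (SE 0.43, edgeR adjusted p = 0.0524). *HSPA1A*, not tested, held 3.55, 2.85 and 1.85 CPM against 0.592, 0.425 and 1.08 CPM, which do not overlap.

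The cochaperones of HSP70 differed in extent. *HSPH1*, an HSP110 that acts as exchange factor, went from 80.2, 99.0 and 23.2 CPM to 18.6, 13.2 and 22.7 CPM, a difference of −1.90 log2 units (SE 0.90, edgeR adjusted p = 0.355). The groups came closest at the low number 3 esiCT library. *BAG3*, an exchange factor that links HSP70 to selective autophagy, was at 127, 135 and 108 CPM with esiCT and at 72.1, 65.7 and 86.2 CPM with #11. Its difference was smaller but tight, −0.73 log2 units (SE 0.18, edgeR adjusted p = 0.0650). *DNAJB1*, an HSF1-driven J protein, overlapped between the groups at 283, 319 and 221 CPM against 211, 227 and 209 CPM.

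*HSP90AA1* was at 4534, 4773 and 1141 CPM with esiCT and at 935, 727 and 942 CPM with #11. The difference was −2.005 log2 units (SE 0.70, edgeR adjusted p = 0.180). *HSPB1* was at 851, 901 and 677 CPM with esiCT and within 543 to 554 CPM in all 3 #11 libraries (−0.56 log2 units, SE 0.24). The mitochondrial pair also lay lower: *HSPD1* was at 1003, 1279 and 438 CPM against 409, 321 and 374 CPM, and *HSPE1*, its HSP10 partner, at 78.8, 96.2 and 67.7 CPM against 31.9, 38.9 and 27.1 CPM. *HSPE1* differed by −1.31 log2 units (SE 0.33, edgeR adjusted p = 0.0790).

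Without number 3 in every group, only numbers 1 and 2 of each group remained. This alternative was chosen after the data were seen, and it leaves out the low number 3 esiCT library described above. For *HSPA1B* it also leaves out the highest #11 library. Then 8 of 9 members were called lower with #11 (*DNAJB1* was not), beside 1807 of 12356 genes (14.6%). *HSPA8* then differed by −2.77 log2 units (edgeR adjusted p = 8.08e-06), *HSPA1B* by −2.68 (8.08e-06), *HSPH1* by −2.49 (0.000888) and *BAG3* by −0.92 (0.00103). With offsets for GC content and length, also chosen afterwards, *HSPA1B* (−1.92, edgeR adjusted p = 0.0384), *BAG3* (−0.77, 0.0269) and *HSPE1* (−1.46, 0.0101) were called lower, beside 414 of 12356 genes (3.35%). Leaving out 1 library at a time gave 0 to 3 called members: *HSPA1B*, *BAG3* or *HSPE1* passed without number 1 or 3 of KO esiCT OXPT, number 3 of WT OXPT or any 1 of the untreated WT libraries, none of which is in the comparison itself but all of which enter the shared estimate of the spread. In the 3 untreated #11 libraries, the Spearman correlation across genes between a library's deviation and GC content was −0.21 to 0.24, against −0.68 to 0.62 in the other groups.

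With OXPT present, 7 of 9 members still had a lower mean with #11 than with esiCT, with a median difference of −0.67 log2 units against −0.014 for all genes. Of 9 members 0 were called by edgeR, against 15 of 12356 genes (0.121%), with 2 at an unadjusted p under 0.05 and 0 by DESeq2. The largest difference was in *HSP90AA1*, at 1464, 1120 and 1271 CPM with #11 and 2403, 5445 and 1459 CPM with esiCT (−1.27, SE 0.69, edgeR adjusted p = 0.555). The groups overlapped by the number 3 esiCT library alone. *HSPH1* and *HSPD1* differed by −0.84 (SE 0.88) and −0.80 (SE 0.59). *HSPB1* had all 3 #11 libraries (786, 771 and 854 CPM) below the esiCT ones (878, 1087 and 1859 CPM), with a difference of −0.67 log2 units (SE 0.24, edgeR adjusted p = 0.331). Such separation was seen in 1 of 9 members, beside 4.89% of all genes in that direction. *HSPE1* differed by −0.83 log2 units (SE 0.33, edgeR adjusted p = 0.388). *BAG3* (0.15, SE 0.17) and *HSPA1B* (0.29, SE 0.42) did not differ beyond their errors. Without number 3 in every group, *HSPH1* (−1.38), *HSP90AA1* (−1.65) and *HSPD1* (−1.20) were called lower, beside 11.5% of all genes.

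OXPT in the KO cells with #11 was the comparison with members called. *HSPA1B* rose from 22.2, 24.0 and 51.2 CPM to 74.6, 79.9 and 120 CPM, by 1.49 log2 units (SE 0.43, edgeR adjusted p = 0.0300). The 3 OXPT libraries lay above the 3 untreated ones, and the number 3 library was the highest in both groups. *BAG3* rose from 72.1, 65.7 and 86.2 CPM to 133, 134 and 143 CPM, by 0.87 log2 units (SE 0.18, edgeR adjusted p = 0.00293). These were 2 of 9 members, beside 1175 of 12356 genes (9.51%), and their untreated libraries are the low #11 group described above. The OXPT level of *BAG3* was near that of KO esiCT with OXPT (138, 118 and 114 CPM).

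Most differences in that comparison had the same sign: 8 of 9 members had a positive difference, with a median of 0.57 log2 units against −0.0024 for all genes. All 3 OXPT libraries lay above all 3 untreated ones in 7 of 9 members, against 22.4% of all genes in that direction. *HSPA8* went from 333, 267 and 391.5 CPM to 654, 632 and 488 CPM (0.84 log2 units, SE 0.68, edgeR adjusted p = 0.499). *HSPE1* had 71.0, 58.1 and 57.7 CPM with OXPT against 31.9, 38.9 and 27.1 CPM (0.93 log2 units, SE 0.33, edgeR adjusted p = 0.0803). *HSPD1* stayed in its range, at 374, 367 and 332 CPM against 409, 321 and 374 CPM. *HSPH1* went from at most 22.7 CPM to at least 24.1 CPM.

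The *HSPA1B* call was lost with GC and length offsets (1.24 log2 units, edgeR adjusted p = 0.110), where *HSPE1* was called instead (0.99, 0.0212), beside 11.7% of all genes. It was also lost without untreated #11 number 1 or 2 or any 1 of the #11 OXPT libraries (edgeR adjusted p up to 0.151), while the *BAG3* call held in 24 of 24 such fits. Without number 3 in every group *HSPA8* was called as well (1.05, edgeR adjusted p = 0.00263), beside 22.9% of all genes.

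**Figure D3:**
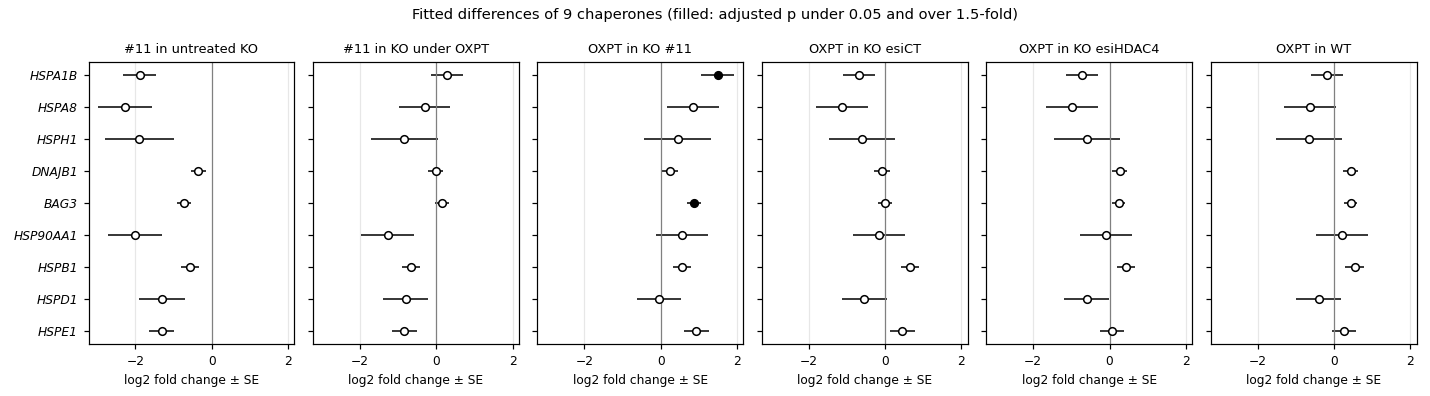
Log2 fold change ± SE (x axis) of the 9 members tested (y axis) in 6 comparisons, by edgeR on 24 libraries. Filled points passed the adjusted p and fold thresholds, which were *HSPA1B* and *BAG3* with OXPT in KO #11. In untreated KO with #11, 9 of 9 points lie below 0.

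In the groups without #11, OXPT gave no called member. In KO esiCT 0 of 9 were called, against 1398 of 12356 genes (11.3%), with 1 at an unadjusted p under 0.05 and 1 (*HSPB1*) by DESeq2, which called 15.0% of all genes. In KO esiHDAC4 0 of 9 were called, against 12.0% of all genes, with 0 at an unadjusted p under 0.05 and 0 by DESeq2. In WT 0 of 9 were called, against 10.7% of all genes, with 3 at an unadjusted p under 0.05 and 0 by DESeq2. *HSPB1* was higher on average in each, by 0.65 (SE 0.24), 0.43 (SE 0.24) and 0.54 log2 units (SE 0.24). In WT its libraries with OXPT, at 1057, 1001 and 1055 CPM, lay above the untreated ones at 784, 535 and 824 CPM.

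*HSPA8* and *HSPA1B* had lower means with OXPT in these groups. *HSPA8* in KO esiCT was at 1957, 2163 and 673 CPM untreated and at 1145, 824 and 218 CPM with OXPT, a difference of −1.13 log2 units (SE 0.68, edgeR adjusted p = 0.311). The number 3 library was the lowest on both sides, so the groups overlapped while numbers 1 and 2 did not. *HSPA1B* in KO esiCT was at 143, 156 and 60.8 CPM untreated and at 72.6, 55.0 and 97.5 CPM with OXPT, and number 3 went the opposite way to numbers 1 and 2. Without number 3 in every group *HSPA1B* (−1.22, edgeR adjusted p = 0.000856) and *HSPA8* (−1.06, 0.00282) were called lower in KO esiCT, beside 17.4% of all genes. Both were also called lower in KO esiHDAC4 (−0.92 and −0.91), beside 18.0% of all genes. In WT *HSPA8* was called lower (−0.60) and *HSPB1* higher (0.65), beside 20.9% of all genes.

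In WT, *BAG3* and *DNAJB1* with OXPT lay above the untreated libraries, at 151, 145 and 213 CPM against 136, 127 and 113 CPM and at 289, 346 and 453 CPM against 273, 254 and 278 CPM. Their differences were 0.43 log2 units each (SE 0.17 and 0.20, edgeR adjusted p = 0.120 and 0.193). With *HSPB1* these were the 3 of 9 members whose WT groups did not overlap, against 11.5% of all genes in that direction. *HSPH1*, *HSPD1* and *HSP90AA1* spread widely within groups: *HSPH1* in WT with OXPT was at 82.9, 104 and 10.7 CPM.

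In these conditions library numbers were taken to pair the groups, because deviations of same-numbered libraries correlated. No label used here states a pairing, so matched cultures and a shared preparation cannot be told apart. Each OXPT library was also set against the untreated library of its number. Over KO esiCT, KO esiHDAC4 and WT, *HSPA8* and *HSPD1* were lower with OXPT in 9 of 9 pairs, as were 13.7% of all genes. *HSPD1* went from 1003 to 780, from 1279 to 876 and from 438 to 207 CPM in KO esiCT. *HSPB1* was higher with OXPT in 9 of 9 pairs, as were 14.3% of all genes. *HSPH1* was lower in 8 pairs and *HSPA1B* in 7, while *HSP90AA1* was lower in 4 and higher in 5. With the replicate number as a block, *HSPA8* differed by −1.22 log2 units in KO esiCT (SE 0.46, edgeR adjusted p = 0.0788), −1.06 in KO esiHDAC4 (0.124) and −0.66 in WT (0.357). *HSPD1* differed by −0.62 (edgeR adjusted p = 0.279), −0.65 (0.255) and −0.38 (0.529), so neither was called.

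The difference in OXPT response between #11 and esiCT was tested as an interaction. *HSPA1B* responded by 2.17 log2 units more with #11 (SE 0.60, edgeR adjusted p = 0.381) and *BAG3* by 0.88 more (SE 0.25, edgeR adjusted p = 0.381). Of 9 members 0 were called, with 2 at an unadjusted p under 0.05 and 0 by DESeq2, and 0 of 12356 genes (0%) were. Without number 3 in every group, *HSPA1B* (2.91), *HSPA8* (2.11) and *BAG3* (0.94) were called, beside 2.01% of all genes. This interaction uses the same untreated #11 and untreated esiCT libraries as the comparisons above, so it is no separate evidence.

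Silencing *HDAC4* gave 0 called members in untreated KO cells (1 of 12356 genes, 0.00809%) and 0 under OXPT (0%), with 0 members at an unadjusted p under 0.05 and 0 by DESeq2 in both. *HDAC4* itself was not called in either comparison (−0.82 and −0.74 log2 units). The largest member differences were −0.37 log2 units for *HSPA1B* untreated (SE 0.42) and −0.64 for *HSPE1* under OXPT (SE 0.33). *BAG3* in untreated cells was at 98.7, 104 and 96.5 CPM with esiHDAC4 against 127, 135 and 108 CPM with esiCT (−0.31 log2 units, SE 0.17, edgeR adjusted p = 0.9997). The esiHDAC4 by OXPT interaction called 0 members and 0% of all genes, with 0 members at an unadjusted p under 0.05 and 0 by DESeq2.

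Between the genotypes, 0 members were called untreated (0.291% of all genes) and 0 under OXPT (0.138%), with 0 and 2 members at an unadjusted p under 0.05 and 0 by DESeq2 in both. With the replicate number as a block, the count over all genes untreated went from 36 to 75 and that of members stayed at 0. *HSP90AA1* had the largest difference, with 4534, 4773 and 1141 CPM in untreated KO esiCT and 1322, 2545 and 409 CPM in untreated WT (1.29 log2 units, SE 0.69, edgeR adjusted p = 0.955). Each library of KO was above the WT library of the same number, but the groups overlapped. Under OXPT *BAG3* was lower in KO by 0.46 log2 units (−0.46, SE 0.17) and *DNAJB1* by 0.49 (−0.49, SE 0.20), neither called. The genotype by OXPT interaction called 0 members and 0% of all genes, with 0 members at an unadjusted p under 0.05 and 0 by DESeq2. Because the WT label entries differ between esiCT and esiHDAC4, genotype and esiRNA cannot be told apart in these comparisons.

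Some members varied together within groups. Deviations of log2 CPM from the group mean over 24 libraries correlated at r = 0.87 to 0.99 among *HSPH1*, *HSPD1*, *HSPA8* and *HSP90AA1*. *HSPB1* and *HSPE1* correlated with each other at 0.73, and *HSPB1* with *HSPH1* at −0.57. *DNAJB1* and *BAG3* correlated at 0.59, and *DNAJB1* with *HSPH1* at −0.02. *HSPA1B* was intermediate, at 0.43 to 0.51 with the first 4 genes and at 0.45 with *BAG3*. These points share libraries, so the number 3 libraries, their depth and their GC profile enter every pair. The 3 members with the overlapping promoter element, *HSP90AA1*, *HSPA8* and *HSPD1*, were among the first 4 genes, as was *HSPH1*, whose window held no match. Over the 24 libraries, group differences included, the genes most like *DNAJB1* were *CNN2* (r = 0.76), *EIF4A3* (0.75), *HSPB8* (0.75), *PELO* (0.75) and *PLIN3* (0.74). *BAG3* was at rank 14 (r = 0.70) and *HSPB1* at rank 1164.

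*HSF1* was at 178, 199 and 176 CPM in untreated KO esiCT and at 182, 164 and 159 CPM with #11, and over all 24 libraries between 137 and 269 CPM. Its levels in these 2 groups overlapped. *HSF2* held 20.7, 20.2 and 16.9 CPM in untreated KO esiCT and 21.5, 19.2 and 23.8 CPM with #11. *HSF4*, named here after its values were seen, had higher means with OXPT in all 4 conditions: 16.6 against 9.68 CPM in KO esiCT, 15.9 against 9.76 in KO esiHDAC4, 17.8 against 9.61 in KO #11 and 14.0 against 8.09 in WT. Its differences were 0.71 to 0.89 log2 units (SE 0.30), with edgeR adjusted p from 0.0698 to 0.142. Of the 4 genes of this list (*HSF1*, *HSF2*, *HSF4* and *HSBP1*), 0 were called by edgeR in any comparison, with at most 2 at an unadjusted p under 0.05. The strictly heat-induced *HSPA6* stayed under 0.67 CPM in every group mean, and *CRYAB* under 0.42 CPM.

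Other chaperone lists gave few calls. With #11 in untreated KO, the TRiC/CCT chaperonin, the cytosolic folding chamber, had 0 of 8 subunits called, against 0.510% of all genes. Of these 8 all had a negative difference (median −0.64 log2 units), with 5 at an unadjusted p under 0.05. Of 10 HSP90 and cochaperone genes 8 were negative (median −0.51), of 9 J proteins 7 (median −0.37) and of 11 other HSP70 genes and exchange factors 8 (median −0.27). The median over all genes was −0.0034. With OXPT in KO #11, where 9.51% of all genes were called, *BAG1*, an exchange factor related to *BAG3*, rose by 1.03 log2 units (SE 0.28, edgeR adjusted p = 0.0243). *AHSA1*, an activator of the HSP90 ATPase, rose there by 0.97 (SE 0.21, edgeR adjusted p = 0.00507).

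Some neighbours of the family changed with OXPT without #11. The share of all genes called with OXPT was 11.3% in KO esiCT, 12.0% in KO esiHDAC4, 9.51% in KO #11 and 10.7% in WT. Of 5 other small heat shock proteins listed, *HSPB11* was not matched to a gene in the counts. Only *HSPB8*, the small heat shock protein that works with BAG3, passed the filter. It rose by 0.87 log2 units in KO esiCT (SE 0.26, edgeR adjusted p = 0.0333), by 0.93 in KO esiHDAC4 (SE 0.26, edgeR adjusted p = 0.0211) and by 1.25 in WT (SE 0.26, edgeR adjusted p = 0.00326). In KO #11 the difference was 0.71 and not called. *DNAJB2* rose in KO esiCT (1.03), KO esiHDAC4 (1.26) and WT (0.97), and *DNAJB6* in WT (0.59). *FKBP5*, an HSP90 cochaperone of steroid receptors, fell with OXPT in all 4 conditions, by 0.88, 0.88, 0.87 and 1.18 log2 units in KO esiCT, KO esiHDAC4, KO #11 and WT.

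The endoplasmic reticulum has its own chaperones, outside HSF1 control for the most part. In KO esiCT 6 of 13 fell with OXPT, beside 11.3% of all genes called in either direction. All 13 were negative (median −0.77 log2 units against 0.0098 for all genes). Of the called genes the largest changes were in *PDIA4* (−1.33, SE 0.19), *HSPA5*, the HSP70 of this compartment (−1.33, SE 0.36), *HYOU1* (−1.17, SE 0.34) and *CALR* (−1.01, SE 0.22). In WT 3 of 13 fell, *HSPA5* by 1.89 log2 units, *PDIA4* by 0.87 and *MANF* by 0.71, beside 10.7% of all genes called. In KO esiHDAC4 *PDIA4* fell, by 1.09, beside 12.0% of all genes called. In KO #11 *HSPA5* and *HYOU1* fell, by 1.32 and 1.06, and *SDF2L1* rose by 0.78, beside 9.51% of all genes called. *SDF2L1* was also the listed gene that fell with #11 in untreated KO, by 1.10 log2 units (SE 0.24, edgeR adjusted p = 0.0434). In that comparison 0.510% of all genes were called. Of 8 other mitochondrial chaperones and proteases 0 were called in each of the 4 OXPT comparisons, against 9.51% to 12.0% of all genes. At an unadjusted p under 0.05 there were 1 or 2.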

How the data were processed

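For each library the authors deposited raw counts, with unstranded, forward-strand and reverse-strand columns for 62757 versioned Ensembl identifiers; per the submitters' processing notes, reads were trimmed with Trimmomatic 0.39 and aligned with STAR 2.7.11a to hg38. Not given in the sources used here are the counting program and annotation release of these tables; the study's methods describe another route for its RNA-seq, salmon on an Ensembl transcriptome followed by DESeq2. Both strand columns held nearly equal totals, so the unstranded counts were used, and the reverse-strand column was an alternative. In the mapped libraries 10.6% to 12.2% of reads were ambiguous between genes and 7.74% to 22.3% were unmapped, with the highest value in KO esiCT OXPT number 3. Reads mapping to several places are not counted per gene.

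Identifiers were joined to GENCODE 44 symbols (62130 with their version, 509 without, 118 unmatched). Genes with a mean count of 64 or more in at least 1 group were kept (12356), counts were scaled by TMM, and 1 edgeR 4.0.16 quasi-likelihood model of 24 libraries in R 4.3.3 gave 13 comparisons. Called genes changed over 1.5-fold with a p under 0.05 after Benjamini-Hochberg adjustment across the 12356. Each SE was obtained by dividing the log2 fold change by the root of its F statistic. Log2 CPM used a prior count of 2. DESeq2 1.42.0 was an alternative. Libraries of 1 group differed beyond sampling noise (chi-square per degree of freedom at least 10.4 in all 24 pairs). Numbers were taken to pair libraries where same-numbered deviations from group means correlated over 0.1 for each number, which held in all comparisons of groups but the pair of #11 against esiCT (lowest r = −0.25 and −0.23). In simulated counts for OXPT in KO esiCT with 12356 genes, 98.5% of genes changed by 3 log2 units were recovered. For changes of 2 and 1 log2 units 86.6% and 36.4% were recovered, and 9 unchanged genes were called. These counts were drawn independently for each library, without the number 3 or GC pattern. Changed genes had mean counts over 64, so these rates may not hold for the real libraries.

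The members and lists were chosen with earlier results of these data known. Named genes are all members, *HSF1*, *HSF2*, called genes of each list (the 4 with the largest change where more were called), label checks and the 5 genes most correlated with *DNAJB1*. Counts of members are given beside the share of all genes called. GC content and length are those of the Ensembl canonical transcript. Intervals and tests cover these libraries only.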

Additional observations from a re-analysis of the deposited data

How the results depend on the processing

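Counts of called members depended on the setting most for #11 in untreated KO, where 0 (beside 0.510% of all genes) became 4 with DESeq2 (3.31%), 2 with RLE normalization (0.639%), 7 with no count filter (*HSPA1A* included, 1.12%), 5 with only the groups compared (4.403%), 3 with GC and length offsets (3.35%) and 8 without number 3 in every group (14.6%, both chosen after the data were seen), and 0 to 3 leaving out 1 library. For OXPT in KO #11, 2 (9.51%) became 4 with no count filter (3.40%) and with only the groups compared (21.8%), and 1 to 3 leaving out 1 library. For OXPT in KO esiCT, 0 became 1 with DESeq2, 1 with no count filter, 2 without number 3 and 0 to 1 leaving out 1 library, where *HSPB1* passed without KO esiCT OXPT number 1. For OXPT in KO esiHDAC4, 0 became 1 with no count filter and 2 without number 3, and for OXPT in WT 2 without number 3. The counts for #11 under OXPT and for #11 by OXPT became 1 and 3 with no count filter and 3 each without number 3, and that for KO against WT untreated became 1 with no count filter. Keeping genes with 64 counts in every group and the reverse-strand column changed no count of members. The cause was not tested. Over all genes, #11 in untreated KO had 63 calls, 50 (reverse-strand column) to 1807 (without number 3) over the alternatives and 0 to 340 leaving out 1 library; #11 under OXPT had 15 (0 to 1421), #11 by OXPT 0 (0 to 248), KO against WT untreated 36 (1 to 322) and under OXPT 17 (0 to 91), OXPT in KO esiCT 1398 (599 to 2500), in KO esiHDAC4 1480 (943 to 2395), in KO #11 1175 (786 to 2831) and in WT 1322 (86 to 2588), esiHDAC4 untreated 1 (0 to 72) and under OXPT 0 (0 to 14), and genotype by OXPT 0 (0 to 24). Leaving out 1 library gave 555 to 1493 for OXPT in KO #11, 778 to 1876 in KO esiCT, 809 to 1909 in KO esiHDAC4, 830 to 2094 in WT, 1 to 27 for #11 under OXPT, 0 to 39 for #11 by OXPT, and 14 to 88 and 10 to 23 for KO against WT untreated and under OXPT. No called member changed sign under any alternative run.

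With the replicate number as a block, members called for #11 in untreated KO went from 0 to 4 (beside 3.21% of all genes), and with the block and GC and length offsets to 7 (8.60%), but there the libraries share only a number: 0 of 6 libraries deviated most like the one of the same number. The block changed no other count of members; over all genes esiHDAC4 in untreated KO went from 1 to 4. *HSPA1A* had 42 raw counts or fewer per group on average, and reads that also map to *HSPA1B* are not among them.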

Other observations

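The 12 WT libraries with contradictory label entries were not used in any comparison. Under the title WT PROTAC11 (3 libraries), *HSP90AA1* was at 254, 258 and 901 CPM and *HSPH1* at 11.8, 21.4 and 31.2 CPM. Under the title WT PROTAC11 OXPT, *HSP90AA1* was at 423, 497 and 562 CPM and *HSPH1* at 6.25, 24.1 and 34.3 CPM. Under WT siHDAC4 UNT, *HSPH1* was at 12.2, 84.6 and 169 CPM and *HSPA8* at 109, 367 and 1604 CPM. Under WT siHDAC4 OXPT, *HSPH1* was at 18.8, 97.6 and 102 CPM and *HSPA8* at 268, 894 and 1263 CPM. *HSPA1B* ran from 16.2 CPM in a library titled WT siHDAC4 UNT to 249 CPM in one titled WT PROTAC11. *DNAJB1* stayed between 222 and 517 CPM and *BAG3* between 76.8 and 202 CPM over the 12.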
